A study of Mus musculus with 40 samples.

Results

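Gene expression in the rib callus of immature mice was compared between 2 days post-resection (2dpr) and the day of surgery (0dpr) by bulk RNAseq. The members of this comparison are, by their labels, the 4 libraries of immature mice at 2dpr and the 4 at 0dpr, 8 of the 40 samples in the series. All 21204 genes that the authors kept in their filtered count table, of 48733 in the full table, were tested. The immature mice were Wild Type females of the C57BL/6 strain, aged 7 weeks by the labels in which a segment of rib bone had been removed. The mature mice used beside them were of the same strain and genotype and over 10 months old. The tissue at each stage was a snap-frozen composite of callus or bone with its marrow and the intercostal muscle around it, ground as a whole. The labels do not say that each library came from a separate mouse, so that the p-values measure the spread between these libraries. Total counts ran from 6989381 to 13862053 per library at 0dpr and from 8160948 to 11561548 at 2dpr.

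Removal of a rib segment tears the intercostal muscle, opens the marrow and leaves a blood clot between the cut ends. In such wounds, neutrophils and monocytes enter within hours to days, macrophages clear dead fibres and red cells through their lysosomes, and satellite cells, the stem cells of muscle, begin to form new fibres. Mesenchymal cells of the periosteum then divide and lay down a provisional matrix, ahead of cartilage and bone.

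A library of mixed tissue reports the share of each transcript in the whole piece, so that fewer cells of a type and less RNA per cell cannot be told apart. The 50 genes of the sarcomere and of the calcium and energy metabolism of muscle took 17.9% ± 3.16 of all counts at 0dpr (SD, n = 4), and 3.23% ± 0.579 at 2dpr. By library, this share was 14.3, 17.0, 21.9 and 18.3% at 0dpr and ran from 2.55 to 3.85% at 2dpr, so that the stages did not overlap. It had been 12.7% ± 1.00 at baseline, and was 4.78% ± 0.664 at 5dpr and 3.01% ± 0.599 at 14dpr, where it lay near the level of 2dpr. Ttn, which encodes the giant spring protein of the sarcomere, alone took 4.48% of counts at 0dpr and 0.762% at 2dpr, when Actb, Col3a1 and Spp1 were among the genes with the most counts. Mitochondrial transcripts went from 5.92% ± 1.84 to 2.24% ± 0.540 of counts.

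Replicate 1 of 0dpr stood apart from the other libraries, since 23 liver genes took 1.24% of its counts. In the other 3 libraries of 0dpr the same genes took 0.0106 to 0.0157% of counts, and at 2dpr 0.00412 to 0.00581%. Alb, which encodes serum albumin, was at 4704, 2.71, 3.10 and 4.45 CPM (the read count relative to the library total as scaled by TMM) in the 4 libraries of 0dpr and at 0.523, 2.36, 1.42 and 7.20 CPM at 2dpr. The plot of muscle and liver genes by library shows both facts side by side, and results that this library moves are also given without it. The 23 liver genes were called lower at 2dpr in 23 of 23 cases with it, and 1 was higher and 1 lower without it.

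**Figure D1:**
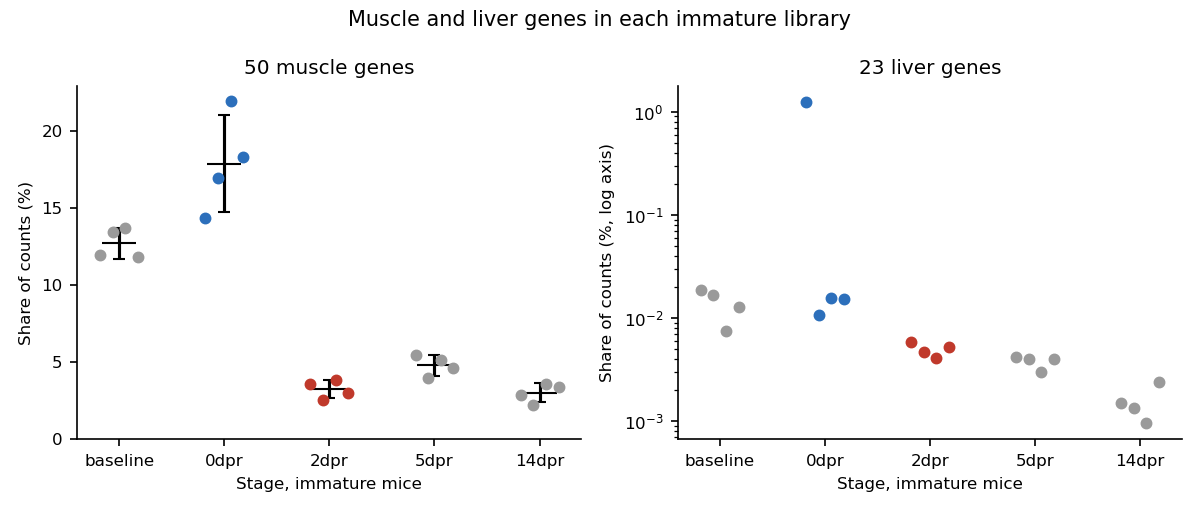
Share of all counts (%) taken by 50 muscle genes (left) and 23 liver genes (right, log axis) in each immature library from baseline to 14dpr. Points are libraries, bars are the mean ± SD, and the muscle share falls from 14.3 to 21.9% at 0dpr to 2.55 to 3.85% at 2dpr while 1 library of 0dpr holds 1.24% of liver genes.

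Promoter sequences are shown for the 2 sarcomere genes with the largest fall and the 2 chemokine ligand genes with the largest rise among those whose promoter holds a motif of their list, since these lists carry opposite sides of the comparison. Each is the 250 bases before the RefSeq transcription start on build GRCm38.p6, 5′ to 3′ on the strand of the gene. Only the motif named here for that gene is in capitals, and matches to the other motifs that were searched are not marked. Myh4, the fast myosin heavy chain, lies on the plus strand with the window at chr11:67237562-67237811 and holds a CArG box, the element of serum response factor, that begins 104 bases before the start. Ttn lies on the minus strand with the window at chr2:76982548-76982797 and holds a MEF2 motif, the element of the myocyte enhancer factors, 166 bases before the start.
Myh4: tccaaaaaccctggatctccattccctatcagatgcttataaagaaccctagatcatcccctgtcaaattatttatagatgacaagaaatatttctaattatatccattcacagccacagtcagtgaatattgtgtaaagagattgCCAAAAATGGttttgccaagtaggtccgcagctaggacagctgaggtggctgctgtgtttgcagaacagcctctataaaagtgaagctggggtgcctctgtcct
Ttn: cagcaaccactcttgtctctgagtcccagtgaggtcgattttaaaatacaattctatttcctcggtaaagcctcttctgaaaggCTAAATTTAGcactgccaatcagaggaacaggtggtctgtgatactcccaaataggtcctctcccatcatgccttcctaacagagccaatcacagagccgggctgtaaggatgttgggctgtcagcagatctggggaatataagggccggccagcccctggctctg
Cxcl3 and Cxcl2, ligands that draw neutrophils, lie on the plus strand of chromosome 5 with windows at chr5:90785851-90786100 and chr5:90903649-90903898. Each holds an NF-kappaB motif, which begins 73 bases before the start in Cxcl3 and 97 bases in Cxcl2, and the capitals mark the motif as read on both strands.
Cxcl3: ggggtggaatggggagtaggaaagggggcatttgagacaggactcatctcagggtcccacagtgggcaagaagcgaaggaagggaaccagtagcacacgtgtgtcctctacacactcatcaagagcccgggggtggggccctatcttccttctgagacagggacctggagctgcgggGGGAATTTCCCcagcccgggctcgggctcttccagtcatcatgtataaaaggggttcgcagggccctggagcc
Cxcl2: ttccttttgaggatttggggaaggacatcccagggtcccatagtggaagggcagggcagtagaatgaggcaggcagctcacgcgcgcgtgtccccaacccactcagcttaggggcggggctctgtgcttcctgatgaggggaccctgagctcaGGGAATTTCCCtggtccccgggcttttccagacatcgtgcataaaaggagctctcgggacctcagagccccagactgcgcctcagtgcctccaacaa
Both strands were searched. A CArG box was found in 5 of 21 promoters of the sarcomere genes that had a RefSeq window (23.8%) and in 1.4% of the 13031 tested genes with a window. The MEF2 motif was found in 1 of these 21 promoters (4.76%), that of Ttn shown above, and in 0.629% of those of tested genes. The E-box, CANNTG, was found in 85.7% and 63.6%. Among 22 chemokine ligand promoters, the NF-kappaB motif was found in 22.7%, against 5.64% of those of tested genes, AP-1 (TGANTCA) in 18.2% against 6.23%, and C/EBP (TTGCNNAA) in 18.2% against 9.80%. These shares were not particular to chemokine ligands. NF-kappaB was found in 33.3% of cartilage and 30.8% of heme and iron promoters. AP-1 was found in 38.5% of protease and inhibitor promoters, and C/EBP in 46.7% of mature neutrophil promoters. A match describes the letters of these windows and not a bound site.

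Over all genes, 4617 were higher at 2dpr (21.8% of those tested) and 4707 lower (22.2%) at an adjusted p under 0.05 by edgeR's quasi-likelihood test, and 44% were called in either direction. Of these, 2363 were higher and 3142 lower by at least 2-fold. The median log2 fold change of all genes was -0.04. With library size alone as scaling, the median moved to 0.21 and the higher genes from 49.5% to 64.6% of those called, so that changes are read relative to this shift. Without replicate 1 of 0dpr, 4493 genes were higher (21.2%) and 4127 lower (19.5%), of which 4140 and 3913 were among those called with it.

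All 30 sarcomere genes and all 20 genes of muscle calcium handling and energy supply were lower at 2dpr, where 22.2% of all genes were. Their medians were -2.65 and -2.82 on the log2 scale, beside -0.04 for all genes. The log2 changes ran from -1.11 for Tnni1, a slow troponin, to -3.72 for Pvalb, the calcium buffer parvalbumin of fast fibres. Myh4, at chromosome 11, 67238029 to 67260446 on the plus strand (GRCm38, GENCODE M21), was at 10790.2, 19584, 26868 and 21002 CPM in the 4 libraries of 0dpr and at 2496, 1685, 2707 and 2056 CPM at 2dpr. Each library of 2dpr lay below each of 0dpr, and replicate 1 was the lowest of 0dpr. The mean fell from 19561 ± 6643 to 2236 ± 457 CPM (SD, n = 4), a log2 change of -3.13 (SE 0.356, adjusted p = 6.11e-09). Pvalb went from 1497, 3731, 4483 and 3915 CPM to 296, 195, 282 and 264 CPM. Replicate 1, which held liver, was again the lowest of 0dpr, and the stages did not overlap. Its log2 change was -3.72 (SE 0.393, adjusted p = 1.35e-09), and -3.94 without replicate 1. Acta1 (skeletal actin, -2.23), Tnnt3 (fast troponin T, -2.82), Ckm (muscle creatine kinase, -2.85) and Ryr1 (the calcium release channel, -2.59) fell with them. In 29 of the 30 sarcomere genes and 20 of the 20 others each library of 2dpr lay below each of 0dpr, as in 18% of all genes. Genes of slow fibres fell as well, with log2 changes of -1.89 for Myh7 (adjusted p = 0.000189) and -2.79 for Myl3 (adjusted p = 1.58e-05). The 20 oxidative phosphorylation genes, which serve all tissues but are dense in muscle, fell in 20 of 20 cases by a median of -1.27. Ndufs1 of complex I changed by -1.52 and Sdha of complex II by -1.41.

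Beside this shared fall, muscle regulators went in both directions. Mstn, which encodes myostatin, the secreted inhibitor of muscle growth, was at 26.4, 51.7, 67.1 and 45.6 CPM at 0dpr and 3.87, 5.40, 3.85 and 4.76 CPM at 2dpr. The stages were far apart in each library, and the log2 change was -3.42 (SE 0.307, adjusted p = 3.89e-11). Sox6, a transcription factor of fast fibres and of chondrocytes that had been listed with cartilage, went from 167 ± 39.6 to 28.7 ± 4.18 CPM, a log2 change of -2.54 (SE 0.201, adjusted p = 2.35e-12). Both were still lower in a model with the sarcomere score (the mean log2 CPM of the sarcomere list) as a covariate. The log2 differences were -2.31 (adjusted p = 0.00976) and -1.61 (adjusted p = 0.00283). These values at equal score are extrapolated from variation within groups, and a change beyond the loss of muscle was not tested. Fbxo32 and Trim63, the ubiquitin ligases of muscle atrophy, fell, with log2 changes of -2.53 and -1.74, and at equal sarcomere score their differences were 0.02 (adjusted p = 0.99) and 0.54 (adjusted p = 0.576). Over all genes, 21.8% were higher and 22.2% lower, and of the 12 atrophy and denervation genes 3 were higher and 7 lower. Ankrd1, a stretch-responsive partner of titin, rose furthest of them, from 2.69, 5.55, 5.64 and 5.98 CPM at 0dpr to 111, 88.6, 84.8 and 62.1 CPM at 2dpr. Each library of 2dpr exceeded each of 0dpr by more than 10-fold. The mean rose 17.5-fold, with a log2 change of 4.11 (SE 0.256, adjusted p = 8.57e-15), and at 14dpr, with as little muscle signal as at 2dpr, it was 8.44 ± 1.16 CPM. Chrna1, the acetylcholine receptor subunit that spreads over denervated fibres, rose from 15.7 ± 8.95 to 40.7 ± 5.95 CPM (adjusted p = 0.000174), and Runx1, a transcription factor that rises in denervated muscle and is also made by blood cells, from 39.2 ± 13.6 to 99.3 ± 3.32 CPM.

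Genes of satellite cells and new fibres rose more often than they fell. Of 15, 8 were higher (21.8% of all genes were) and 3 lower, with a median of 0.61. The members that rose furthest act late in fibre formation. Mymk, the fusion protein myomaker, was at 0.149, 0.123, 0.182 and 0.139 CPM at 0dpr and 8.48, 7.77, 8.63 and 10.8 CPM at 2dpr. It was near the floor in each library of 0dpr and counted in each of 2dpr, with a log2 change of 5.77 (SE 0.779, adjusted p = 1.71e-07). Mymx, its fusion partner, had no read at 0dpr and 3.77, 1.58, 1.93 and 5.23 CPM at 2dpr, at least 8.29-fold higher against a floor of 3 reads per library. Chrng, the embryonic acetylcholine receptor subunit, had 1 read over the 4 libraries of 0dpr and 8.69, 6.19, 6.28 and 6.97 CPM at 2dpr (adjusted p = 1.99e-07). Myog, the transcription factor of terminal differentiation, went from 4.63, 9.12, 10.6 and 10.6 CPM to 67.9, 37.9, 42.0 and 55.4 CPM. All 4 libraries of 2dpr were above those of 0dpr, and the log2 change was 2.53 (SE 0.294, adjusted p = 9.76e-09). Myod1, the earlier factor, rose (log2 change 1.02, adjusted p = 0.00203), with replicate 3 of 2dpr at 15.8 CPM just above the highest library of 0dpr at 15.6 CPM. Pax7, the marker of resting satellite cells, was at 3.83 ± 1.15 and 4.14 ± 0.524 CPM (adjusted p = 0.881), and Myf5 at 2.90 ± 2.26 and 2.24 ± 0.754 CPM (adjusted p = 0.514). Myh3, the embryonic myosin, rose from 8.39 ± 2.18 to 58.5 ± 21.6 CPM, with a log2 change of 2.80 (SE 0.438, adjusted p = 2.34e-06) and stood at 677 ± 274 CPM at 5dpr. Myh8, the perinatal myosin, was at 5.16 ± 1.88 and 6.73 ± 2.67 CPM at 0 and 2dpr (adjusted p = 0.59), and reached 738 ± 325 CPM at 5dpr. Myf6 and Des, which serve mature fibres, were lower, with log2 changes of -1.95 and -1.05.

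Monocyte and macrophage genes had the highest median of the lists. Of 26 members, 23 were higher and none lower, with a median of 3.23, and 22 were higher without replicate 1 of 0dpr. In 20 of the 26 each library of 2dpr lay above each of 0dpr, as in 20.4% of all genes. Trem2, a lipid receptor of phagocytic macrophages at chromosome 17, 48346401 to 48354147 on the plus strand, was at 1.64, 1.85, 2.00 and 1.95 CPM at 0dpr and at 204, 139, 142 and 169 CPM at 2dpr. The 4 libraries of 0dpr were within 1 CPM of each other, and the lowest of 2dpr lay far above them. The mean rose 88.0-fold, with a log2 change of 6.44 (SE 0.296, adjusted p = 5.16e-18). Gpnmb, a glycoprotein of lipid-laden macrophages, was at 7.62, 8.88, 6.65 and 6.26 CPM at 0dpr and 947, 398, 689 and 945 CPM at 2dpr. Replicate 2 of 2dpr was the lowest, and the log2 change was 6.66 (SE 0.552, adjusted p = 6.46e-12). Arg1, an arginase of wound macrophages that is also a urea cycle enzyme of liver, was at 42.7, 0.863, 1.09 and 0.974 CPM at 0dpr and 489.9, 570.1, 967 and 674 CPM at 2dpr. The library with liver transcripts held nearly all of the signal at 0dpr. With it the log2 change was 5.95 (SE 0.724, adjusted p = 2.33e-08), and without it 9.42 (adjusted p = 9.13e-15), the largest rise of any gene with a mean of at least 10 CPM when that library was left out. Broad markers rose as well, with log2 changes of 1.93 for Csf1r (the receptor of macrophage colony-stimulating factor), 3.95 for Cd68, 2.42 for Itgam, 2.28 for Lyz2 and 2.72 for Adgre1. Ccr2, the receptor of monocytes that enter from blood, rose from 48.1 ± 21.6 to 459.5 ± 122 CPM and was at 145 ± 10.3 CPM at 5dpr. The monocyte marker Ly6c2 went from 52.2 ± 51.3 to 119 ± 52.5 CPM (adjusted p = 0.0351), with overlapping libraries, and was not called without replicate 1 (adjusted p = 0.121). Cd163 of resident macrophages went from 51.5 ± 8.86 to 90.6 ± 40.6 CPM (adjusted p = 0.0296), and was also not called without replicate 1 (adjusted p = 0.0739).

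Lysosomal and phagocytic genes rose in 20 of 20 cases, by a median of 2.07, with and without replicate 1. Ctss, a cysteine protease of antigen-presenting cells, was at 65.9, 79.5, 37.4 and 58.7 CPM at 0dpr and 1371, 1527, 1731 and 1683 CPM at 2dpr. The stages were far apart in each library. Its mean rose 26.1-fold, with a log2 change of 4.71 (SE 0.254, adjusted p = 2.89e-16). Ctsb rose from 657 ± 27.7 to 4019 ± 214 CPM, and the log2 changes of the protease Ctsd, the lipase Lipa and the membrane protein Lamp1 were 2.04, 2.40 and 0.73.

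Among 31 chemokine ligands, 18 were higher and 3 lower, with a median of 1.73. The lower ones numbered 5 without replicate 1 of 0dpr and 1 without replicate 1 of 2dpr. Ccl2, which draws Ccr2-bearing monocytes, was at 4.63, 3.70, 5.74 and 3.90 CPM at 0dpr and 230.0, 303, 375 and 324 CPM at 2dpr. Each library of 2dpr exceeded each of 0dpr, and the mean rose 68.6-fold, with a log2 change of 6.08 (SE 0.37, adjusted p = 5.42e-15). Ccl7, a ligand of the same receptor, rose from 3.76 ± 1.83 to 215 ± 39.3 CPM, and Ccl3, a ligand of Ccr1, from 0.522 ± 0.391 to 31.8 ± 10.4 CPM. The neutrophil ligands Cxcl3 and Cxcl2, whose promoters hold the NF-kappaB motif, rose as well. Cxcl3 had no read at 0dpr and was at 15.0, 18.1, 18.2 and 10.9 CPM at 2dpr, at least 41.2-fold higher against the same floor. Cxcl2 was at 7.32, 0.493, 0.182 and 1.25 CPM at 0dpr and 38.4, 44.9, 88.4 and 44.5 CPM at 2dpr. Replicate 1 was the highest of 0dpr, and the log2 change was 4.68 (SE 0.63, adjusted p = 1.61e-07) with it and 6.53 without it. Cxcl5 rose from 0.234 ± 0.266 to 30.6 ± 18.4 CPM. Ccl21a, which guides lymphocytes along lymph vessels, and whose reads can be shared with near-identical copies, was lower, from 48.2 ± 15.6 to 16.4 ± 4.35 CPM (adjusted p = 6.97e-06), and Cxcl12, which holds blood precursors in marrow, was at 195 ± 65.2 and 141 ± 18.5 CPM (adjusted p = 0.0676). Of 18 receptors, 7 were higher and none lower, while 9 were higher and 2 lower without replicate 2 of 0dpr. Ccr1 rose from 20.8 ± 7.41 to 182 ± 42.1 CPM and Cx3cr1, the receptor of fractalkine, from 7.60 ± 4.50 to 58.2 ± 17.7 CPM.

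Inflammatory cytokines and their receptors were higher in 24 of 33 cases and lower in none. Il1rn, the antagonist of the interleukin 1 receptor, was at 2.69, 8.14, 1.18 and 4.31 CPM at 0dpr and 159, 102, 285 and 258 CPM at 2dpr. No library of 2dpr reached down to 0dpr, although libraries of 2dpr differed among themselves by more than 2-fold. Its log2 change was 5.64 (SE 0.481, adjusted p = 1.21e-11) and that of Il1b, the cytokine whose receptor it blocks, was 3.14 (SE 0.452). Tnf rose from 1.32 ± 1.03 to 22.2 ± 6.73 CPM, Ptgs2 (cyclooxygenase 2) from 3.55 ± 3.71 to 26.5 ± 12.7 CPM, and Il4ra, a receptor chain for interleukins 4 and 13, from 59.6 ± 12.8 to 442 ± 85.3 CPM. Il6 was at 4.18, 0.247, 0 and 0.278 CPM at 0dpr and 2.72, 3.15, 3.52 and 3.95 CPM at 2dpr. Replicate 1 of 0dpr exceeded each library of 2dpr, and Il6 was not called with that library (adjusted p = 0.069) but was without it, at a log2 change of 4.32 (adjusted p = 3.29e-05). Il10, which restrains macrophages, rose from 0.364 ± 0.373 to 2.70 ± 1.4 CPM (adjusted p = 0.000756), and Osm, a cytokine of macrophages and neutrophils, rose from 2.97 ± 3.12 to 10.7 ± 1.59 CPM (adjusted p = 0.00441).

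Genes induced by interferon were higher in 19 of 20 cases, with a median of 2.25. Their libraries at 2dpr were uneven. Mx1, an antiviral GTPase, was at 1.79, 7.03, 1.64 and 2.23 CPM at 0dpr and 13.1, 69.5, 88.9 and 57.7 CPM at 2dpr. Replicate 1 of 2dpr was far below the other 3 libraries of its stage but above each of 0dpr, with a log2 change of 4.18 (SE 0.416, adjusted p = 3.78e-10). The same library was the lowest of 2dpr for Irf7 (89.5, 219, 245 and 205 CPM) and for Cxcl10 (4.08, 28.5, 44.8 and 40.1 CPM), and for Isg15 it lay within the range of 0dpr (16.5, 53.0, 72.9 and 64.0 against 4.93, 22.7, 6.46 and 12.5 CPM). The mean log2 CPM of the list was 4.44 in that library and up to 6.33 in the others of 2dpr, against 3.34 to 4.14 at 0dpr.

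Neutrophil genes gave no common direction. Of 16, 6 were higher, none lower, and the median was -0.25. S100a8, an abundant protein of neutrophils, was at 444, 1696, 213 and 638 CPM at 0dpr and 461, 363, 453 and 943 CPM at 2dpr. The stages overlapped, with replicate 2 of 0dpr the highest of all (adjusted p = 0.52). The 6 that rose included Clec4d, a lectin shared with macrophages (8.60 ± 5.56 to 107 ± 19 CPM), and the receptors Fpr1, Csf3r and Cxcr2, with log2 changes of 1.88, 1.45 and 1.10. None of 10 marrow granulocyte precursor genes was called with all libraries, but 3 were lower without replicate 3 of 0dpr, 2 lower without replicate 4 of 2dpr and 1 higher without replicate 2 of 0dpr. Among them, Mpo was at 226 ± 192 and 98.5 ± 46.1 CPM (adjusted p = 0.0872). Replicates 2 and 4 of 0dpr were the highest libraries of that stage for Mpo, at 138, 479, 31.4 and 253 CPM over the 4 libraries.

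Genes of heme and iron handling went in both directions. Hmox1, which opens the heme ring, was at 11.1, 39.3, 15.1 and 36 CPM at 0dpr and 395, 437, 458 and 516 CPM at 2dpr. Again no library overlapped, and the mean rose 17.8-fold, with a log2 change of 4.15 (SE 0.333, adjusted p = 3.46e-12). Ferritin light chain Ftl1 rose from 412 ± 94.5 to 2316 ± 433 CPM, heavy chain Fth1 from 582 ± 36.9 to 890.0 ± 113 CPM, and Slc11a1, an iron pump of phagosomes, from 14.7 ± 1.54 to 193 ± 23.1 CPM. Slc40a1, the iron exporter ferroportin, was lower, at 29.6, 81.4, 26.9 and 47.9 CPM at 0dpr and 19.5, 27.8, 24.8 and 34.7 CPM at 2dpr, with overlapping libraries (adjusted p = 0.0371). Over the 18 genes, 8 were higher and 5 lower with all libraries, beside 21.8% and 22.2% of all genes. Without replicate 1 of 0dpr, 7 were higher and 2 lower. Without replicate 1 or 3 of 2dpr, 3 were lower. Hpx and Hamp, which liver makes, were called lower with replicate 1 of 0dpr and not without it (adjusted p = 0.928 and 0.535). Complement genes also went both ways. Over 16 genes, 5 were higher and 6 lower, beside 21.8% and 22.2% of all genes. Their mean log2 CPM at 0dpr was highest in replicate 1, the library with liver, at 6.03. The C1q chains of macrophages rose (log2 change 2.47 for C1qa and 2.89 for C1qb), whereas C3 was at 2929.8, 837, 1353 and 910.4 CPM at 0dpr and 977, 778, 707 and 839.7 CPM at 2dpr. C3 was highest in the library with liver, and its fall (adjusted p = 0.0146) was lost without it (adjusted p = 0.36).

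**Figure D2:**
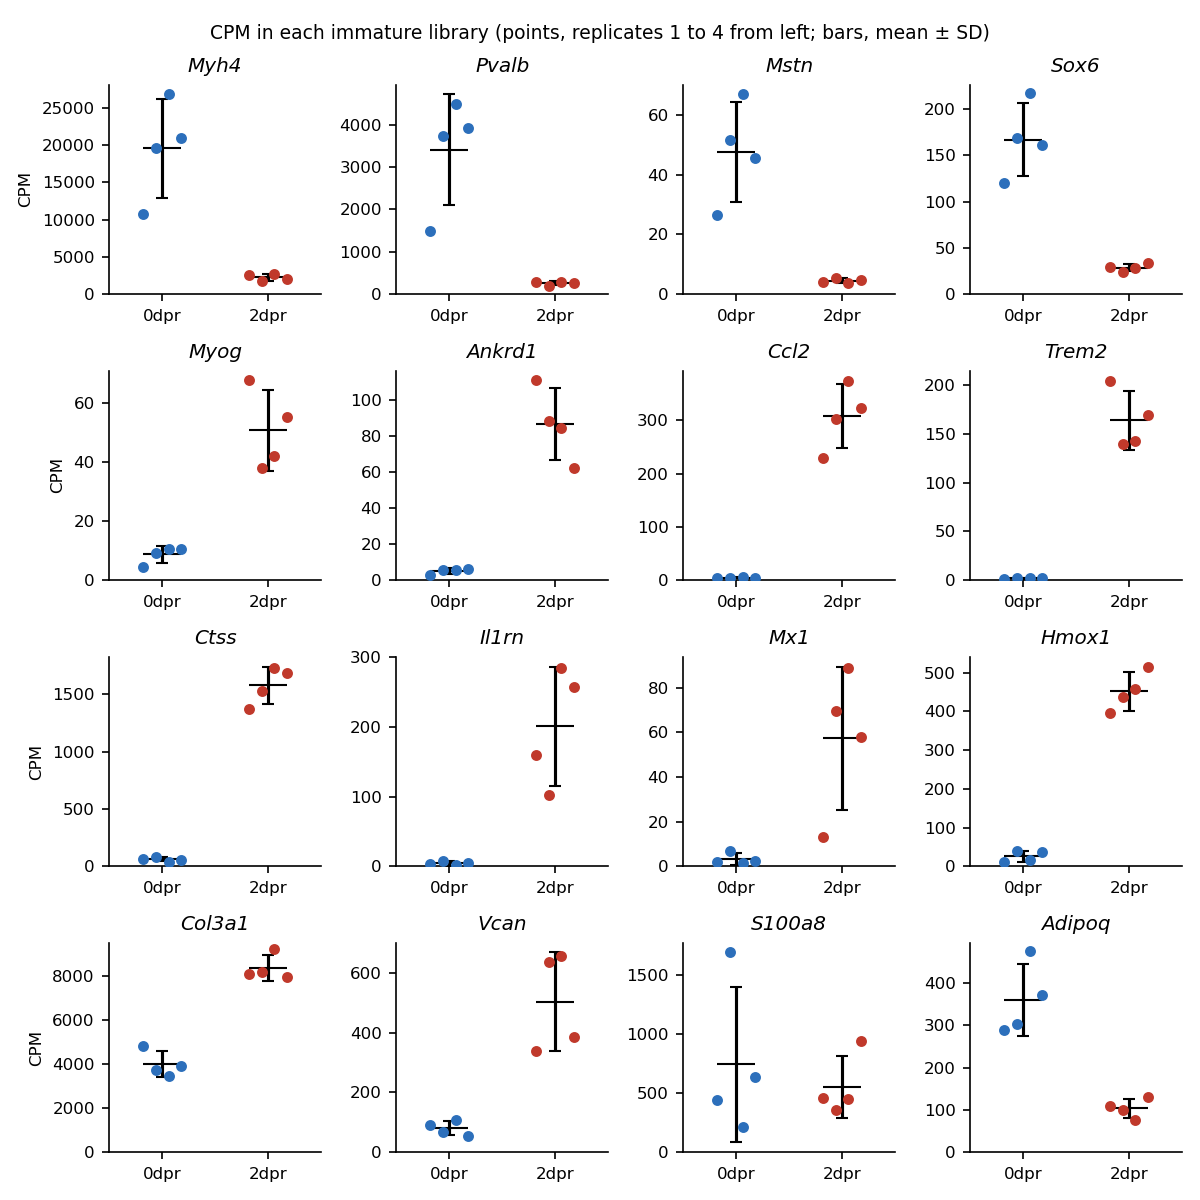
CPM of 16 genes in each immature library of 0 and 2dpr, with replicates 1 to 4 from the left. Points are libraries and bars the mean ± SD, every axis starts at 0, and the stages overlap for S100a8 but not for the other 15 genes.

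Among matrix genes of mesenchymal cells, 12 of 24 were higher and 2 lower, with a median of 0.63, and 4 were lower without replicate 3 of 0dpr. Vcan, the large proteoglycan of provisional matrix, was at 90.4, 67.8, 109 and 55.4 CPM at 0dpr and 337, 636, 654 and 384 CPM at 2dpr. The stages did not overlap, with a log2 change of 2.64 (SE 0.258, adjusted p = 2.66e-10). Col3a1, the collagen of early repair tissue, was at 4834, 3752, 3472 and 3913 CPM at 0dpr and 8075, 8155, 9207 and 7970.4 CPM at 2dpr, a log2 change of 1.06 (SE 0.215, adjusted p = 0.00011), and stood at 18586 ± 3399 CPM at 5dpr. Col1a1, the main collagen of bone, was at 11288, 8377, 1594 and 7903 CPM at 0dpr and 5806, 4688, 5110.3 and 7901 CPM at 2dpr. Replicate 3 of 0dpr was the lowest of the 8 libraries, and no difference was called (adjusted p = 0.545). Fn1 (fibronectin) was at 2870.2, 530.4, 693 and 805 CPM at 0dpr and 2700.0, 2815, 3600.5 and 3489 CPM at 2dpr. The library with liver lay within the range of 2dpr, and the log2 change was 1.36 with it and 2.24 without it. Tnc (tenascin C) and the crosslinking enzyme Lox rose, with log2 changes of 1.98 and 1.71, and Dcn, the proteoglycan of mature connective tissue, fell from 1251 ± 266 to 516 ± 51.6 CPM (adjusted p = 1.01e-07).

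Proteases and their inhibitors were higher in 12 of 22 cases and lower in 4. Mmp12, the elastase of macrophages, was at 0.896, 1.36, 1.00 and 0.696 CPM at 0dpr and 80.9, 85.1, 99.9 and 142 CPM at 2dpr. The stages were far apart, with a log2 change of 6.66 (SE 0.532, adjusted p = 3.18e-12). The inhibitors of metalloproteases went apart, with log2 changes of 3.15 (SE 0.298, adjusted p = 1.21e-10) for Timp1, -3.71 (SE 0.455, adjusted p = 2.72e-08) for Timp4 and -1.34 (SE 0.226, adjusted p = 8.33e-06) for Timp3. Adam8, a protease of myeloid cells, and Plaur, the urokinase receptor, rose, with log2 changes of 3.69 and 2.27.

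Markers of fibroblasts and periosteal progenitors showed no common direction, with 5 of 18 higher, 7 lower and a median of 0.08. Over all genes, 21.8% were higher and 22.2% lower. Pdgfra, a receptor of skeletal progenitors, was at 186 ± 23.6 and 222 ± 22.3 CPM (adjusted p = 0.114), and Prrx1 at 99.8 ± 18.3 and 112 ± 12.7 CPM (adjusted p = 0.343). Cthrc1, a gene of activated fibroblasts, rose from 14.7 ± 7.01 to 63.6 ± 3.49 CPM (adjusted p = 3.97e-07) and Acta2 from 137 ± 45.1 to 241 ± 45.1 CPM (adjusted p = 0.00966), whereas Scara5 and Pi16, genes of resting fibroblasts, fell, with log2 changes of -2.15 and -1.10. Growth factors were as mixed, with 8 of 25 higher and 9 lower. Tgfb1 rose from 22.3 ± 9.33 to 50.9 ± 4.52 CPM (adjusted p = 0.00245), Inhba, the activin A subunit, rose (log2 change 2.04, adjusted p = 0.000106), and Vegfa, the angiogenic factor, fell from 159 ± 14.8 to 51.3 ± 9.66 CPM (adjusted p = 5.05e-07). Igf1 was at 294, 123, 198 and 114 CPM at 0dpr and 116, 96.7, 117 and 133 CPM at 2dpr. The library with liver was the highest, and its fall (adjusted p = 0.00648) was not called without that library (adjusted p = 0.166), where 9 growth factors were higher and 5 lower.

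Cell cycle genes were higher in 18 of 24 cases, with a median of 1.07, and in 13 without replicate 1 of 0dpr. Cdk1, the mitotic kinase, was at 5.83, 46.7, 10.4 and 30.9 CPM at 0dpr and 73.4, 66.6, 55.7 and 71.1 CPM at 2dpr. The stages did not overlap, but libraries of 0dpr ranged over 8-fold, with a log2 change of 1.51 (SE 0.379, adjusted p = 0.00136). Mki67, a marker of dividing cells, was at 105, 796, 169 and 447 CPM at 0dpr and 321, 349, 336 and 413 CPM at 2dpr. Replicates 2 and 4 of 0dpr exceeded each library of 2dpr, and the other 2 lay below them, and Mki67 was not called (adjusted p = 0.857). The same 2 libraries of 0dpr were the highest for Mpo, and the part of marrow cells in the cycle genes was not tested. Ccnd1, the cyclin of entry into the cycle, rose from 37.4 ± 5.93 to 110.5 ± 18.7 CPM (adjusted p = 9.89e-08). Of 16 genes of endoplasmic reticulum stress, 10 were higher, among them the chaperone Hspa5 (1.21), and 2 lower, with Chac1, a glutathione-degrading enzyme, at -3.33.

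Glycolysis changed isoforms. Eno1, the general enolase, was at 295, 199, 258 and 193 CPM at 0dpr and 793, 760.0, 1053 and 789 CPM at 2dpr. Eno3, the enolase of muscle, was at 1865, 3269, 3870.1 and 3606 CPM at 0dpr and 532, 363, 506 and 509.8 CPM at 2dpr. Neither gene had an overlap between the stages, and the log2 changes were 1.84 (SE 0.199) and -2.72 (SE 0.283). Pgam1 and Pgam2 parted in the same way, at 2.21 and -2.73, and so did the glucose carriers Slc2a1 and Slc2a4, at 1.28 and -2.86. Over the 21 isoform genes, 8 were higher and 10 lower. Eno3, Pgam2 and Slc2a4 are also members of the muscle calcium and energy list, whose median was -2.82. In mixed tissue, a change of isoform within cells cannot be told apart from a smaller share of muscle. Reads of Eno1, Pgam1 and the ferritins can be shared with processed copies in the genome.

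B cell, erythroid, fat and nerve genes fell. Of 18 B cell and precursor genes, 11 were lower and 1, Blnk (log2 change 1.13), higher, with a median of -1.79. Cd79a, a signalling chain of the B cell receptor, was at 7.02, 18.5, 5.01 and 15.9 CPM at 0dpr and 2.20, 1.80, 3.10 and 3.72 CPM at 2dpr, with a log2 change of -2.09 (SE 0.673, adjusted p = 0.0112). Erythroid genes were lower in 14 of 17 cases, with a median of -1.81. That count was 7 without replicate 2 of 0dpr, 9 without replicate 4 of 0dpr, 9 without replicate 2 of 2dpr and 9 with library size alone, with medians from -1.65 to -1.24. Hbb-bs, an adult beta globin whose reads can be shared with Hbb-bt, was at 2195, 7881, 8291 and 9669 CPM at 0dpr and 1566, 1164, 1844 and 2403 CPM at 2dpr. Replicate 1 of 0dpr was the lowest of its stage and within the range of 2dpr. Without it the log2 change went from -2.01 to -2.28, and 16 of the 17 genes were lower. T cell and NK genes were called lower in 2 of 18 cases and higher in none, and without replicate 1 of 2dpr in 7 cases lower and 1 higher. This count was 1 lower and 1 higher without replicate 2 of 0dpr, and 1 lower without replicate 2, 3 or 4 of 2dpr. Adipocyte genes were lower in 14 of 16 cases, with a median of -1.59. Adipoq, the fat hormone adiponectin, was at 289.5, 302, 474 and 371 CPM at 0dpr and 110.4, 99.1, 77.2 and 130.2 CPM at 2dpr. The stages did not overlap, with a log2 change of -1.79 (SE 0.301, adjusted p = 7.94e-06). Scd1, the desaturase of fat synthesis, fell from 5178 ± 1531 to 347 ± 179 CPM, with a log2 change of -3.90 (SE 0.552, adjusted p = 4.17e-07) and was among the 10 largest falls of genes without overlap and with a mean of at least 10 CPM, most of which were liver genes such as Tat and Hnf4a. Schwann cell and nerve genes were lower in 10 of 16 cases. Of 20 endothelial genes, 3 were higher and 5 lower, beside 21.8% and 22.2% of all genes. Pecam1 was at 172 ± 33.4 and 159.7 ± 7.10 CPM (adjusted p = 0.496), Kdr, the receptor of Vegfa, fell (log2 change -0.95, adjusted p = 8.48e-06), and Angpt2, which loosens vessels, rose (log2 change 1.49, adjusted p = 0.000308).

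Cartilage genes were called lower in 4 of 15 cases, Sox6 among them, and higher in none, where 22.2% of all genes were lower. Col2a1, the collagen of cartilage, was at 45.6, 4.07, 8.01 and 63.0 CPM at 0dpr and 81.2, 8.67, 29.7 and 6.16 CPM at 2dpr. Libraries within each stage differed more than 10-fold, and no difference was called (adjusted p = 0.96). Sox9, the factor that directs cartilage formation, was at 4.33, 0.863, 2.73 and 3.48 CPM and 4.92, 6.87, 5.11 and 5.92 CPM, above each library of 0dpr at 2dpr but not called (adjusted p = 0.0945). Runx2, which directs osteoblast formation, was at 28.2 ± 19 and 21.6 ± 2.28 CPM (adjusted p = 0.437), and Sp7 at 17.0 ± 8.76 and 8.87 ± 5.60 CPM (adjusted p = 0.128). Bglap, the osteocalcin of mature osteoblasts, whose reads can be shared with Bglap2, fell from 241 ± 161 to 58.0 ± 54.8 CPM (adjusted p = 0.0113), with overlapping libraries. Of 19 osteoblast and osteocyte genes, 7 were lower and 2 higher, which were Spp1 (osteopontin, log2 change 3.91) and Pdpn (podoplanin, 2.86), both also made by macrophages or fibroblasts. Without replicate 1 of 0dpr or without replicate 2 of 2dpr, 3 were lower, and without replicate 3 of 2dpr 4 were. Osteoclast genes went both ways, with 5 of 14 higher and 4 lower, or 2 lower without replicate 2 of 0dpr. Over all genes, 21.8% were higher and 22.2% lower. Tnfrsf11a, the receptor of the osteoclast factor RANKL, rose from 10.1 ± 3.11 to 67.2 ± 7.80 CPM, whereas Acp5 and Calcr, genes of mature osteoclasts, fell, with log2 changes of -0.83 (adjusted p = 0.0345, and 0.152 without replicate 1 of 0dpr) and -2.62 (adjusted p = 0.00026).

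Of 20 immediate early and heat shock genes, 5 were higher and 6 lower, close to the 21.8% and 22.2% of all genes. Fosl1, which responds later than its relatives, rose from 0.0909 ± 0.0651 to 5.72 ± 0.957 CPM, with a log2 change of 5.79 (SE 0.82, adjusted p = 4.16e-07). Egr1 was at 319.8, 43.6, 57.6 and 36.4 CPM at 0dpr and 14.6, 12.0, 17.6 and 23.9 CPM at 2dpr. The library with liver was the highest by far, and the log2 change was -2.74 with it and -1.41 without it (adjusted p = 0.00428). Fos, in which the same library was the highest, was called lower with it (adjusted p = 0.0026) and not without it (adjusted p = 0.073).

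**Figure D3:**
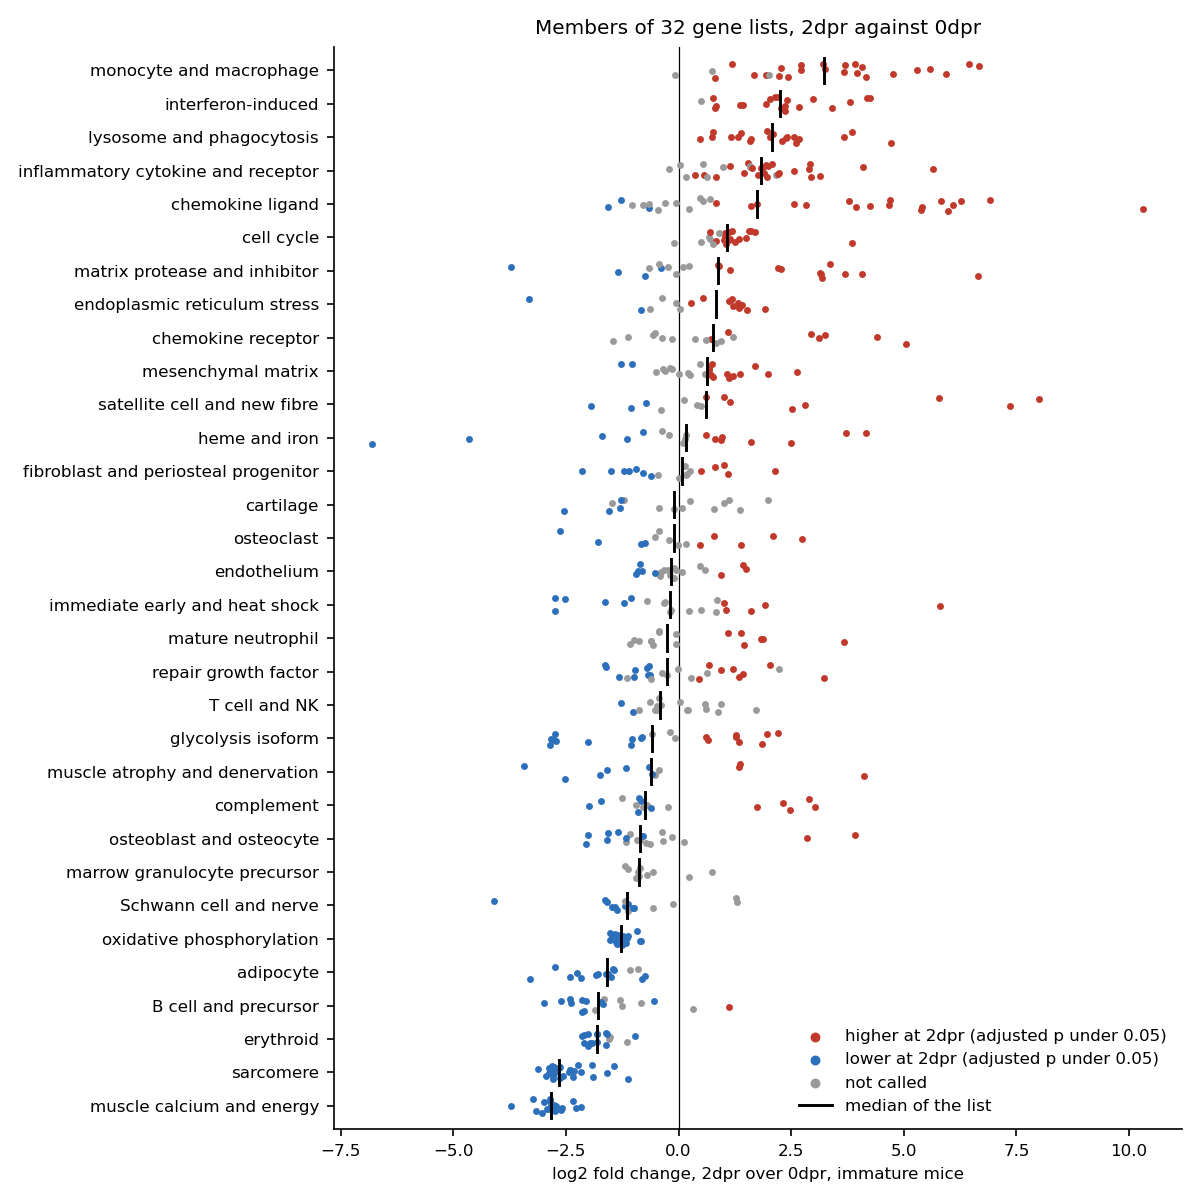
Log2 fold change (2dpr over 0dpr, immature mice) of each member of 32 gene lists, ordered by list median. Points are genes, red and blue mark those called higher and lower at an adjusted p under 0.05, black bars are medians, and the medians run from 3.23 for macrophage genes to -2.82 for muscle calcium and energy genes.

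Since the 50 muscle genes took 17.9% of counts at 0dpr and 3.23% at 2dpr, the calls on other genes were recomputed in ways that handle this loss differently. Leaving those 50 genes out of the counts, with library sizes and scaling recomputed, gave 4701 genes higher (22.2%) and 4584 lower (21.7%) of 21154, close to the counts with them. Macrophage (23 of 26), lysosome (20 of 20), interferon (19 of 20), chemokine ligand (18 of 31) and cytokine genes (24 of 33) were called higher in the same numbers as with the muscle genes. Leaving these genes out alters little more than the scaling of the others, and the macrophage median went from 3.23 to 3.25. Such a fit cannot show how far other changes came with the loss of muscle. Of the 4657 lower genes outside the muscle lists, 693 fell further than the sarcomere median of -2.65, and 461 did so without replicate 1 of 0dpr, where that median was -2.73. Of these, 269 and 148 had a mean of at least 10 CPM at 0dpr. Genes outside the lists include others of muscle, such as Mrln (log2 change -3.75), so that a larger fall is not by itself a change beyond muscle.

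In a stricter handling, the mean log2 CPM of the sarcomere list in each library was added to the model, so that the stages were compared at an equal score. The score differed between the stages by -2.44 and varied within groups by an SD of 0.365, so that the difference at an equal score is extrapolated from variation within groups. The median SE of a gene rose from 0.328 to 0.635, so that a difference of the same size passes less often. With the score, 909 genes were higher (4.29%) and 616 lower (2.91%), of which 891 and 595 had been called in the same direction without it. None of the 30 sarcomere genes was called (median -0.17). Since the score is the mean of these genes, this followed from the model and is not a result. Of the 20 calcium and energy genes, 2 were lower, among them Slc2a4 (-1.02, adjusted p = 0.0428).

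The lysosome list held 16 of 20 genes higher, the macrophage list 17 of 26, the chemokine ligand list 14 of 31, the inflammatory cytokine list 10 of 33 and the interferon list 7 of 20. The satellite cell list held 9 of 15 higher and none lower, with Myog at a difference of 4.20 (adjusted p = 5.84e-07). Ankrd1 of the atrophy list was at 5.07 (adjusted p = 1.05e-09). Trem2 (6.04, adjusted p = 3.45e-10), Ctss (4.14), Il1rn (4.65), Ccl2 (4.66), Mx1 (3.80) and Hmox1 (3.69) were still called higher. The protease and inhibitor list held 6 of 22 higher. In the matrix list 1 of 24 genes, Vcan (2.24, adjusted p = 0.0042), was called higher, and the median went from 0.63 to -0.03. None of the 24 cell cycle genes was called, and their median went from 1.07 to 0.03. Col3a1, with a difference of 1.07 (adjusted p = 0.114) against 1.06 without the score, kept its size and lost its call. No erythroid, adipocyte, Schwann cell or oxidative phosphorylation gene was called. Their medians were -2.14, -1.35, -0.83 and -0.36 with the score, against -1.81, -1.59, -1.15 and -1.27 without it, so that the lost calls of the first 3 lists came with medians of similar size and a larger SE. Des, the intermediate filament of muscle, changed direction, from -1.05 to 1.00 (adjusted p = 0.0158). The slow fibre genes Myh7 (0.98, adjusted p = 0.357) and Tnni1 (0.92, adjusted p = 0.307) also had a positive difference at an equal score, without a call. Both are members of the score, so that their differences are relative to a mean that includes them. Leaving replicate 1 of 0dpr out as well gave 642 genes higher (3.03%) and 228 lower (1.08%). There, 18 of 26 macrophage and 14 of 20 lysosome genes were higher, and 3 of 20 interferon genes. The satellite cell list then held 6 of 15 higher, and 2 erythroid genes were lower, with a median of -3.01.

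**Figure D4:**
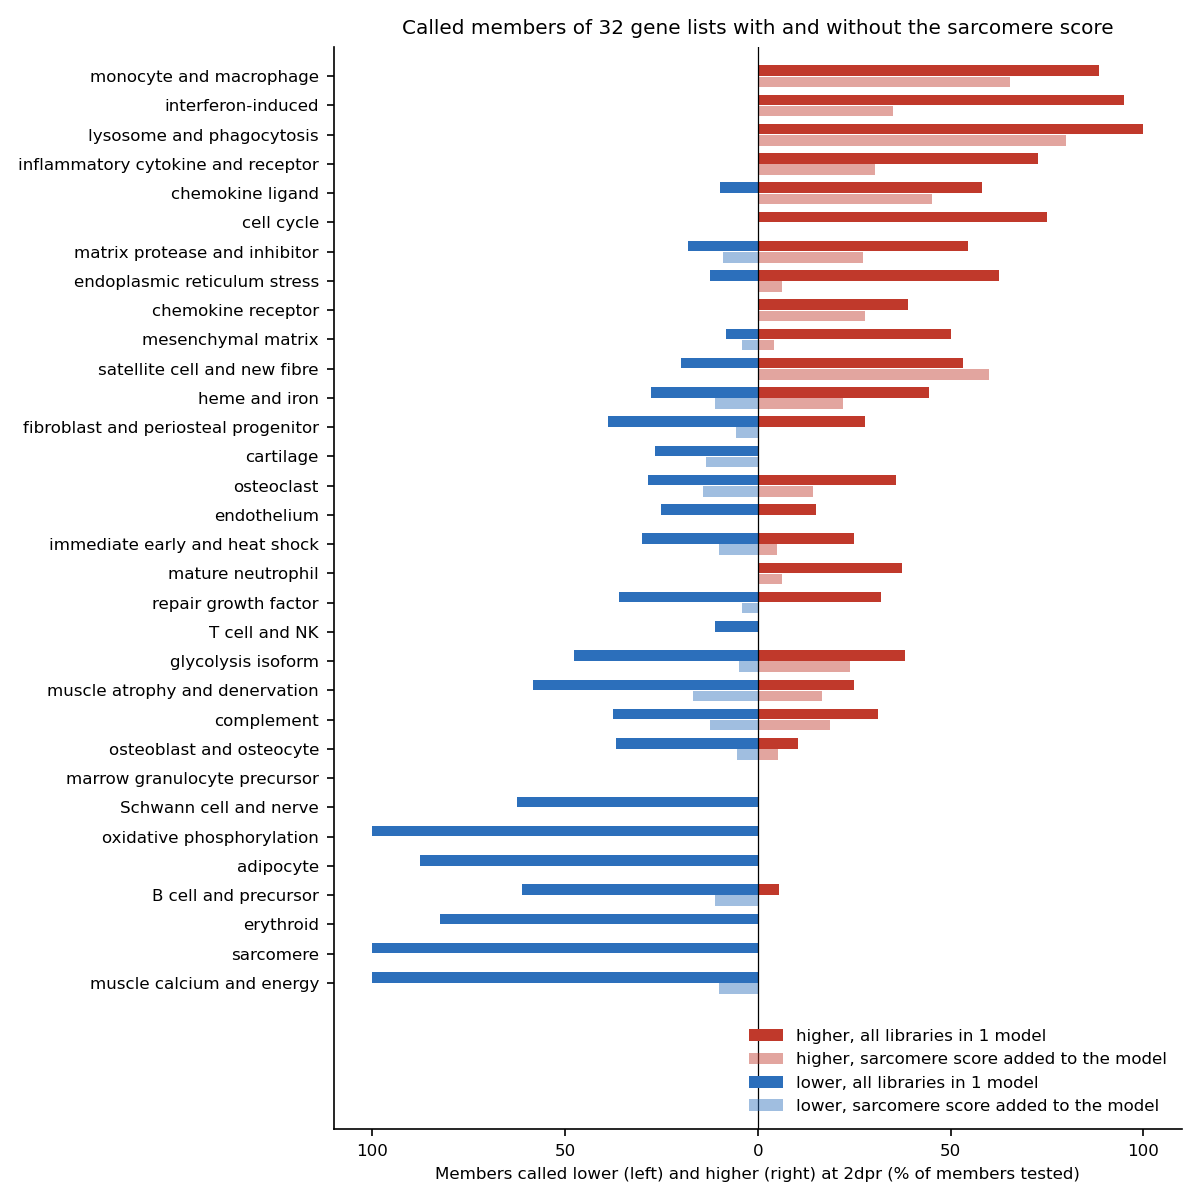
Share of the tested members of 32 gene lists called higher (right) and lower (left) at 2dpr, without (dark) and with (pale) the sarcomere score in the model. With the score, 16 of 20 lysosome, 17 of 26 macrophage, 14 of 31 chemokine ligand and 9 of 15 satellite cell genes are called higher. No cell cycle, adipocyte or erythroid gene is called, and no sarcomere gene, as their mean is the score.

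Levels at 14dpr offer a second view, since the muscle share was 3.01% there and 3.23% at 2dpr. Ccl2 was at 34.3 ± 12.6 CPM at 14dpr, Arg1 at 21.9 ± 7.61 CPM, Myog at 15.2 ± 3.05 CPM and Fosl1 at 0.696 ± 0.382 CPM, each between the means of 0 and 2dpr. Gpnmb (572 ± 179 CPM), Lyz2 (5565 ± 911 CPM) and Csf1r (546 ± 35.3 CPM) were then near their levels of 2dpr. Mmp12 (467 ± 155 CPM), Il1b (176 ± 51.5 CPM) and Cxcl2 (87.8 ± 17.5 CPM) were above them, and Col1a1 (18813 ± 4295 CPM) and Col3a1 (18593 ± 4178 CPM) as well. Mstn (7.78 ± 0.662 CPM), Scd1 (244 ± 173 CPM) and Adipoq (68.5 ± 23.3 CPM) were still low. These later levels were not tested.

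**Figure D5:**
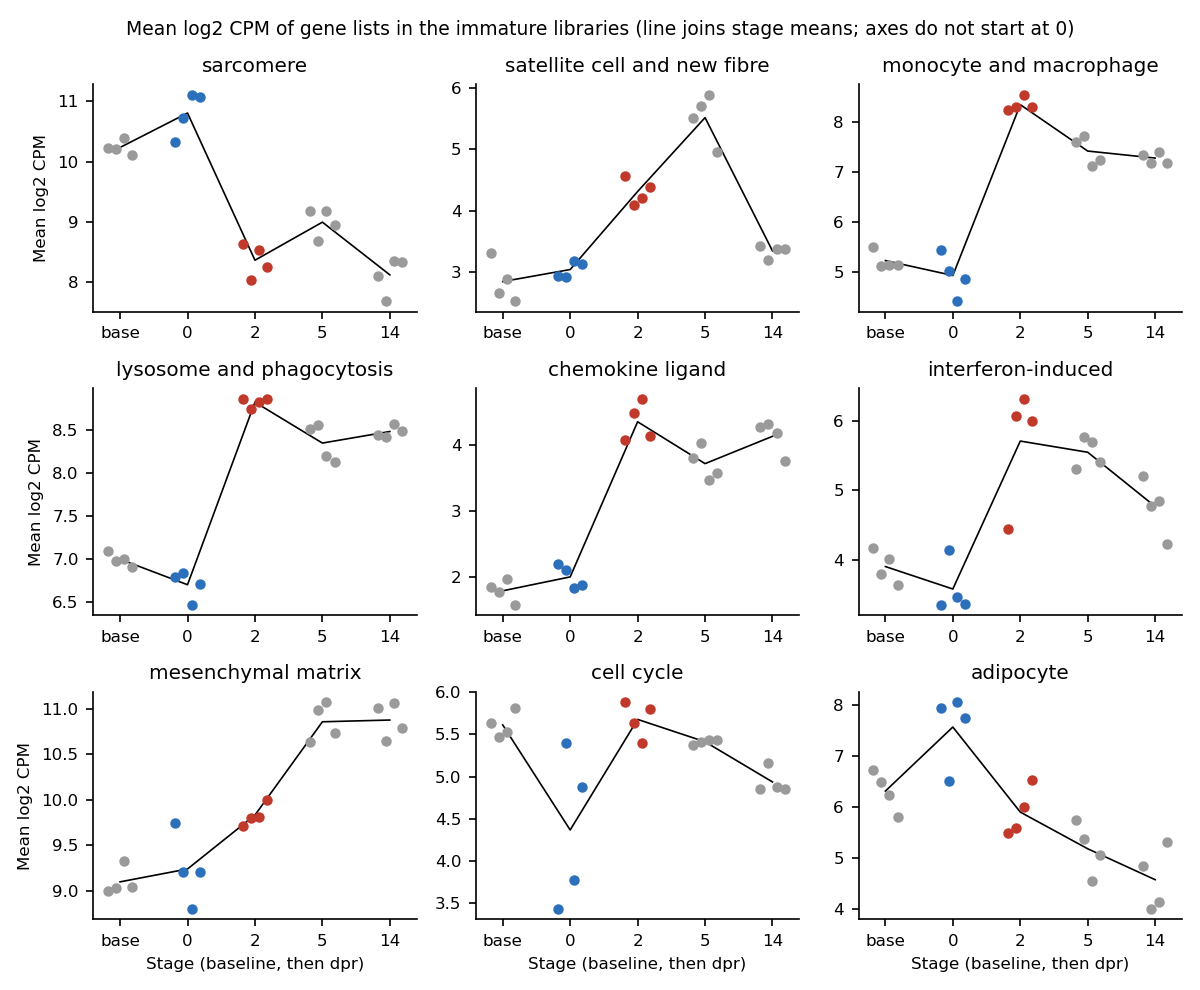
Mean log2 CPM of 9 gene lists in each immature library at baseline, 0, 2, 5 and 14dpr, with a line through the stage means. Blue marks 0dpr and red 2dpr, axes do not start at 0, and the sarcomere score stays low through 14dpr while the satellite cell score is highest at 5dpr and the macrophage score at 2dpr.

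In mature mice, 4812 genes were higher (22.7%) and 5288 lower (24.9%) at 2dpr. The change was tested for a difference between the ages in each gene, and 13 genes were called (0.0613%). Of the genes in the lists these were Trem2, Myh3 and Lox. Trem2 rose in both, with log2 changes of 6.44 in immature and 4.43 in mature mice and a difference of 2.01 (SE 0.374, adjusted p = 0.0279). Myh3 changed by 2.80 and -0.18 (difference 2.98, adjusted p = 0.0405), and Lox by 1.71 and 2.89 (difference -1.19, adjusted p = 0.0421). Myh3 went from 8.39 to 58.5 CPM in immature mice and from 18.9 to 16.6 CPM in mature mice. Lox went from 122 to 397 CPM and from 48.2 to 358 CPM. For Trem2 and Lox, the ratio between the ages was thus nearer to even at 2dpr than at 0dpr. The ages were not tested against each other within a stage. For Myog (2.53 and 3.28, adjusted p of the difference 0.486), Ccl2 (6.08 and 7.29, 0.33) and Arg1 (5.95 and 8.77, 0.271), no difference between the ages was called. For Arg1 the immature change without the library with liver was 9.42, above the mature value, and the difference was not tested there. The 13 calls rest on the model of all 39 libraries and fell to 0 when the 16 libraries of these 4 groups were fitted alone, where 1085 genes had an unadjusted p under 0.05.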

How the data were processed

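Rib callus composites of female C57BL/6 mice were sequenced in 40 samples, of which 39 libraries in 10 groups were analysed here. Per the labels and methods, the authors aligned paired reads to GRCm38 with STAR and deposited raw read counts per gene as a table and as a shorter table that they had filtered. A deposited CPM table was not used. Groups came from the labels. Counts of the filtered table (21204 genes, of which 21132 had a symbol) were fitted in edgeR 4.0.16 (R 4.3.3) with TMM scaling and the quasi-likelihood test, with 1 coefficient per group, and p-values were adjusted by Benjamini-Hochberg over all genes at a threshold of 0.05. CPM are TMM-scaled, and list scores are mean log2 CPM with a prior count of 2. The sarcomere score entered 1 alternative as a covariate. DESeq2 1.42.0 (Wald test), other scalings, filters and libraries served as other alternatives. On simulated data the test was checked before use. No pair of libraries was found to be a duplicate. Neither the run of each library nor the number of mice behind it is given in the sources used here.

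The members and the 33 gene lists were chosen with earlier results of these data known. Genes were named as the 10 largest changes per direction without overlap and with a mean of at least 10 CPM, the 3 largest called changes of a list with a mean of at least 1 CPM, the first 4 genes of each list, and called members against the direction of their list. Adgre1, Ccl7, Cd163, Eno3, Il4ra, Il6, Ly6c2, Myf5, Myh7, Myh8, Myl3, Pgam2, Pi16, Plaur, Ptgs2 and Tnni1 were chosen after their values were seen. A few members of the lists are counted but not reported here by name. Promoters are from RefSeq tables for GRCm38.p6 and were matched by symbol.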

Additional observations from a re-analysis of the deposited data

Results flagged for a closer look

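Over the genes and list scores named here, 342 groups of 4 libraries were checked for a sample far from the others by Dixon's ratio (the gap to the nearest sample over the range of the group), and 32 passed Dixon's critical value for that size. Chance flags about 1 in 20 groups, and the groups share their libraries.

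Replicate 1 of immature mice at 0dpr accounted for 16 of these. It was the highest sample of its group for Alb (4704 CPM), Hpx (174 CPM), Hamp (6.42 CPM), Arg1 (42.7 CPM), Fn1 (2870.2 CPM), Egr1 (319.8 CPM), Fos (307 CPM), Cxcl2 (7.32 CPM), Il6 (4.18 CPM), Tnfrsf11a (14.8 CPM) and Chrng (0.149 CPM, a single read), and for the mean log2 CPM of the liver list (8.36) and the complement list (6.03). The same library was the lowest for Ankrd1 (2.69 CPM), Pgam2 (602 CPM) and the mean log2 CPM of the glycolysis isoform list (7.81).

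Replicate 2 of 0dpr was the highest of its group for Mx1 (7.03 CPM), Cx3cr1 (14.3 CPM) and the mean log2 CPM of the interferon-induced list (4.14). Replicate 4 of 0dpr was the highest for Timp4 (40.1 CPM) and Myl3 (175 CPM). At 2dpr, replicate 1 was the highest for Myh7 (260.2 CPM) and Pax7 (4.92 CPM) and the lowest for Ccl7 (156 CPM), and replicate 2 was the lowest for Eno3 (363 CPM). Replicate 3 of 2dpr was the highest for Cxcl2 (88.4 CPM), Col3a1 (9207 CPM), Eno1 (1053 CPM) and Timp1 (275 CPM), and replicate 4 for Mpo (167 CPM), S100a8 (943 CPM) and Scd1 (612 CPM).

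The change from 0 to 2dpr differed between immature and mature mice, by the interaction term of edgeR's quasi-likelihood model, for Trem2 (difference 2.01 on the log2 scale, immature minus mature), Myh3 (2.98) and Lox (-1.19). These calls rest on the model of all 39 libraries, and 0 genes were called when the 16 libraries of both ages at these stages were fitted alone.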

How the results depend on the processing

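Of 139 named genes, 130 to 138 kept their direction and side of the threshold under each of RLE size factors, library size alone, DESeq2, filterByExpr, the unfiltered table, the fit of the 8 libraries alone and the replicate block, and none reversed. All 127 outside the muscle lists did so without the muscle genes, which alters little more than the scaling of the other genes. Without 1 library, 126 to 136 did so. Over all genes, RLE gave 4068 higher and 5311 lower, library size alone 6198 and 3401, DESeq2 4251 and 5547, filterByExpr 4262 and 4896 of 18334, and all genes without the filter 4541 and 4164 of 35481. Leaving out 1 library gave 3956 to 4866 higher and 4127 to 4645 lower. The fit of the 8 libraries alone called 11 cell cycle genes higher, and the age difference fell from 13 genes to 0 with the 16 libraries of 4 groups alone.

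Replicate numbers did not pair the libraries. The correlations of same-numbered samples were -0.13, -0.04, -0.0026 and -0.04, and no sample correlated best with its own number. With the replicate block, 3511 genes were higher and 3041 lower, in the fit of the 8 libraries.

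The sarcomere score in the model left 909 genes higher and 616 lower, and leaving out replicate 1 of 0dpr as well, an alternative chosen after seeing the data, left 642 and 228. The counts of lists under these settings were 0 and 0 lower for sarcomere genes, 2 and 0 lower for muscle calcium and energy, and, for genes called higher, 10 and 12 inflammatory, 7 and 3 interferon, 1 and 3 matrix, 6 and 7 protease and 0 and 1 cell cycle genes. With the score, the log2 changes turned to 0.43 for Acta1, 0.29 for Ckm, 0.18 for Myf6, 1.00 for Des, 0.017 for Fbxo32, 0.54 for Trim63, 0.98 for Myh7, 0.19 for Myl3 and 0.92 for Tnni1. With both, they turned to 0.34 for Acta1, 0.013 for Ckm, 0.20 for Ryr1, 0.96 for Des, 0.41 for Trim63, 1.17 for Myh7, 0.17 for Myl3, 1.07 for Tnni1, 0.25 for C3, 2.82 for Hamp, -0.27 for Blnk, -0.43 for Cdk1 and -0.51 for Ly6c2. Acta1, Myh7, Myl3 and Tnni1 are, like all sarcomere genes, members of the score, so their values are relative to a mean that includes them. The cause of these turns was not tested. Without 1 library, Hpx ran from -7.25 to 0.14 and Hamp from -5.12 to 2.37, both highest without replicate 1 of 0dpr, which held the liver transcripts.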

Other observations

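Some of the largest changes lay outside the lists, ranked among genes with a mean of at least 10 CPM and no overlap, without replicate 1 of 0dpr. Acod1, which makes itaconate in activated macrophages, was at 1.11, 0.273 and 0.278 CPM in the other libraries of 0dpr and 31.6, 50.5, 149 and 68.5 CPM at 2dpr (log2 change 7.11, adjusted p = 3.23e-09). The antisense gene 4930430E12Rik was at 0, 0 and 0.139 CPM and then at 20.7, 22.4, 25.2 and 24.6 CPM, with 0.448 CPM in replicate 1 of 0dpr. Gm10800 was at 81.1 CPM in that replicate and at 0.370, 0.364 and 0.556 CPM in the others of 0dpr, against 39.9 to 208 CPM at 2dpr. Among the largest falls, Mrln, which encodes the small regulator myoregulin of the muscle calcium pump, went from 40.8, 40.8 and 41.6 CPM to 2.09, 3.38, 2.85 and 2.44 CPM (log2 change -3.91, adjusted p = 3.25e-10). Scd1 and Timp4 were among these falls too. Ppp1r3c, a glycogen-targeting subunit of protein phosphatase 1, went from 394, 453 and 384 CPM to 27.5, 30.2, 31.3 and 22.8 CPM (log2 change -3.86, adjusted p = 8.70e-10).

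At an equal sarcomere score and without that replicate, the genes with the largest falls by the same rule included genes of platelets and red cells. Tubb1, the tubulin of platelets, was at 42.9, 24.8 and 31.7 CPM at 0dpr and 5.13, 2.59, 1.76 and 8.94 CPM at 2dpr. Itga2b, the platelet integrin, was at 69.6, 28.2 and 61.5 CPM and then at 13.0, 7.09, 5.78 and 20.6 CPM. Alas2, the first enzyme of heme synthesis in red cell precursors, was at 444, 306 and 511 CPM and then at 70.6, 61.9, 99.9 and 122 CPM.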
